A study of Mus musculus with 20 samples.

Results

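The platelet-derived growth factor (PDGF) system was described through 6 genes, the receptors Pdgfra and Pdgfrb and the ligands Pdgfa, Pdgfb, Pdgfc and Pdgfd, chosen by gene symbol from the 24347 genes listed for each library. All 6 were found in all 12 RNA libraries. The cells came from crushed, collagenase-treated mouse long bones and were sorted into CXCL12-abundant reticular (CAR) cells, gated CD45-CD31-Lin-PDGFRα+Sca1-, and into PaS cells, gated alike except for being Sca1+, with 3 libraries in each of the groups CAR ko, CAR wt, PaS ko and PaS wt. The ko genotype was Ebf1fl/fl;Prx1+/cre and the wt genotype Ebf1+/+;Prx1+/cre, so both carried the Prx1-cre transgene, whose promoter is active in limb mesenchyme, and both were C57BL/6. Age, sex and any pooling of animals are not given in the labels. The comparisons ask whether the PDGF genes differ when Ebf1, a transcription factor of B cells and mesenchyme, is targeted, and whether they differ between CAR and PaS cells.

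PDGF ligands are secreted dimers that bind and pair receptor tyrosine kinases on mesenchymal cells. PDGF-A and PDGF-C act mainly through PDGFRα, PDGF-D mainly through PDGFRβ, and PDGF-B through both. PDGF-A and PDGF-B are cut inside the cell by proprotein convertases, while PDGF-C and PDGF-D are secreted in a latent form with a CUB domain that proteases outside the cell remove. PDGFRα together with Sca1 marks mesenchymal progenitors of the marrow, and PDGFRβ is widely used as a marker of perivascular stroma. PDGFRα protein was a gate for both populations, so the level of Pdgfra is in part set by the sort.

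Values were FPKM, that is fragments counted relative to transcript length and to library size, so levels of different genes can be set side by side. The read depth is not given; relative depths read from the steps of low genes were 0.888 to 1.12 of the mean. Replicate 1 of PaS wt listed fewer genes at 0, 24.6%, where the remaining 11 libraries listed 33.3% to 37.0%. Ebf1 had 57.5 ± 1.99 FPKM in CAR ko and 48.1 ± 1.10 FPKM in CAR wt libraries, and 62.5 ± 2.18 FPKM in PaS ko and 55.9 ± 5.89 FPKM in PaS wt libraries (SD, n = 3 each). The targeted gene was thus not lower in libraries labelled ko, and in CAR cells it was called higher (log2 fold change 0.25, SE 0.08, adjusted p = 0.040). FPKM over all exons may count those that a deletion spares and does not check the labels, so groups are named as labelled. The sort was reflected in its markers: all 12 CAR cell markers on the list were higher in CAR wt than in PaS wt libraries, and all 12 PaS and fibroblast markers were lower. The separation was unequal, with a median log2 fold change of 1.76 for the CAR cell markers and -6.07 for the PaS and fibroblast markers. The CAR cell markers summed to 6619 to 6809 FPKM in PaS wt libraries, against 20822 to 21950 FPKM in CAR wt libraries. Ly6a, which encodes Sca1, ranged from 4.03 to 12.3 FPKM in CAR libraries and from 1524 to 2176 FPKM in PaS libraries.

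Promoter sequence is shown for Pdgfc and Pdgfra, the genes whose ko minus wt difference itself differed between CAR and PaS cells. The sequences are from RefSeq on GRCm38.p6 and run from 250 bases before the annotated start to 30 bases from it on, 5′ to 3′, with letters matching CCCNNGGG, the core of the EBF recognition motif, in capitals.
Pdgfc, chr3:81036166-81036445, plus strand: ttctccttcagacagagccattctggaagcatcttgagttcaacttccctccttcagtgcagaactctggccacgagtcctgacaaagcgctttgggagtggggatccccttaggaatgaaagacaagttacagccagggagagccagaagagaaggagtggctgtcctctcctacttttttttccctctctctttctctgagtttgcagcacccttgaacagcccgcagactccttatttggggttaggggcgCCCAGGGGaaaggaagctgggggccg
Pdgfra, chr5:75152001-75152280, plus strand: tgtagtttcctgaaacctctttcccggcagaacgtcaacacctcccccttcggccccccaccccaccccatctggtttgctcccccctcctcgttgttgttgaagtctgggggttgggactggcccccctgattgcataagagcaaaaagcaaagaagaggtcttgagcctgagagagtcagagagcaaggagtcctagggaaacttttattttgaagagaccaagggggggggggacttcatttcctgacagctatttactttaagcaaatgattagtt
The Pdgfc window held 1 match to CCCNNGGG, beginning 4 bases after the start, and the Pdgfra window held none. An annotated start need not be the first base of the gene. For Pdgfc it is, at 81036416. The Pdgfra gene begins at 75151322, before the whole Pdgfra window, so that window does not cover the first base of the gene. The longer EBF motif, which adds T before and A after this core, was in neither. Both motifs read the same on either strand, and the longer includes the core. Of the 6 genes, 4 had entries in the promoter table (Pdgfra, Pdgfa with 2 starts, Pdgfc and Pdgfd); none held the longer motif within 250 bases before and 50 after a start, and CCCNNGGG was also found once, 198 bases before 1 of the Pdgfa starts. Over all 32851 promoters of that length, 13.7% held CCCNNGGG and 0.904% held the longer motif. A match is a description of the letters only.

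Pdgfrb was the most abundant of the 6 genes in CAR cells and Pdgfra in PaS cells, on the FPKM scale. Among the ligands Pdgfa was the highest in every group, followed by Pdgfd and then Pdgfc, and Pdgfb stayed below 1 FPKM in all libraries. Pdgfrb, Pdgfa and Pdgfd were each higher in every CAR library than in any PaS library, and Pdgfra was lower in every CAR library than in any PaS library. Pdgfc did not divide by population: its highest group was CAR ko and its lowest CAR wt.

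**Figure D1:**
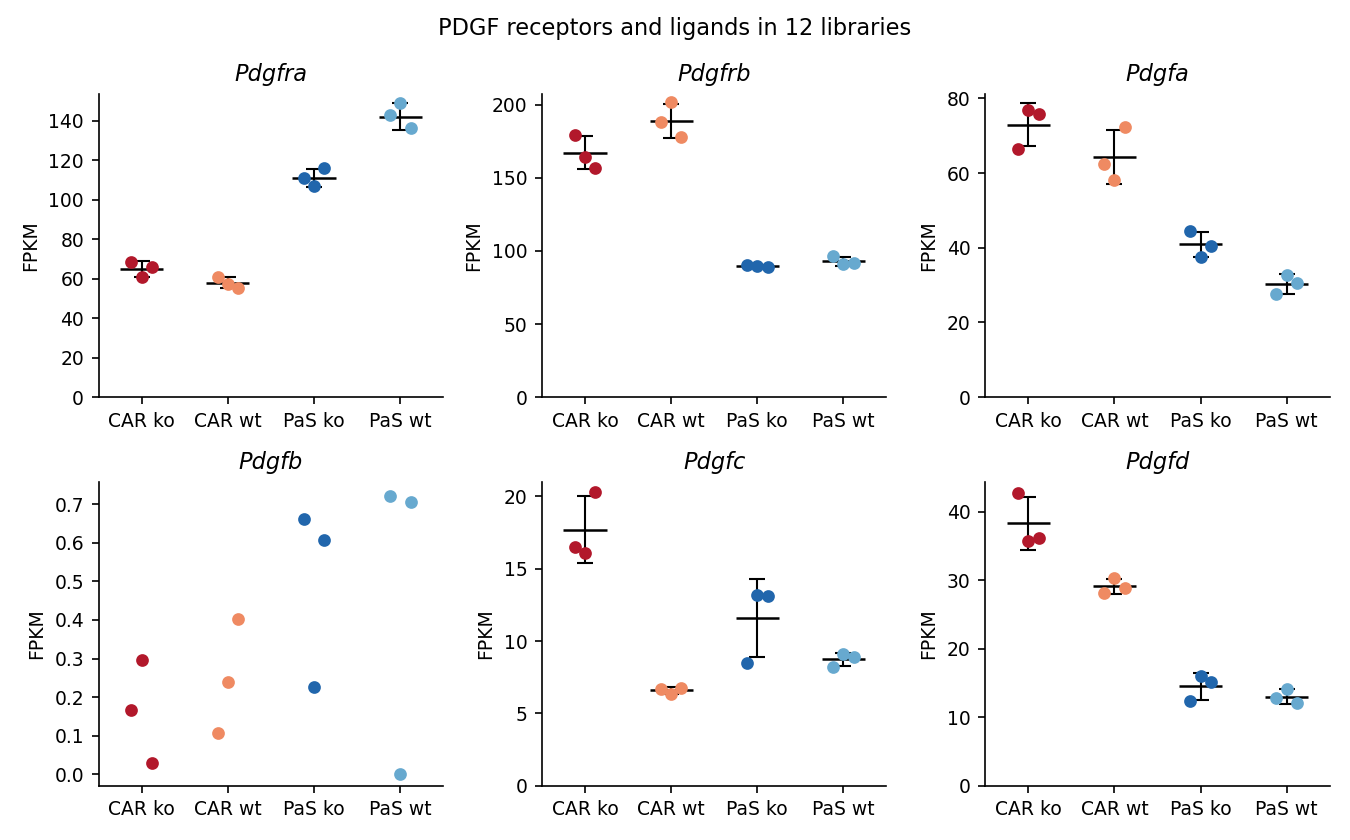
FPKM of the 6 genes in each library (points) by group, with the mean and SD of 3 libraries (black bars; none for Pdgfb, which is listed at 0 in a PaS wt library). Pdgfc has its 3 CAR ko libraries at 16.1 to 20.3 FPKM, above all other libraries, while Pdgfra falls into 3 levels, with CAR libraries lowest, PaS ko next and PaS wt highest.

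Of the 6 genes, 5 passed the filter of 1 FPKM in at least 3 libraries and were tested, and Pdgfb was not. In CAR cells 2 of the 5, Pdgfc and Pdgfd, were called higher in ko libraries at an adjusted p under 0.05 and 0 lower, where 12.3% of all 12938 tested genes were called, 6.51% higher and 5.74% lower. At an unadjusted limma p under 0.05, 3 were higher and 1 lower. The share of all tested genes at that unadjusted p is not given, here or for the lists below. Counts at the unadjusted p therefore have no background and cannot be set against the shares called. In PaS cells Pdgfa was called higher and Pdgfra lower, against 7.44% called among all genes, 3.41% higher and 4.03% lower. The median log2 fold change of the 5 was 0.18 in CAR and 0.15 in PaS cells, against 0.01 and 0.00 over all tested genes. An exact permutation test of 3 against 3 libraries cannot give a p below 0.1, so the tests given are those of the limma model over all genes. Whether the replicates are separate animals is not stated, so the p-values measure the spread between these libraries.

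Pdgfra, the receptor for PDGF-A and PDGF-C, did not pass the genotype test in CAR cells and was lower in ko than in wt PaS cells. In CAR cells it had 68.3, 60.6 and 65.8 FPKM in ko libraries, against 60.9, 57.3 and 55.4 FPKM in wt libraries. These groups overlapped, and the log2 fold change was 0.16 (SE 0.07, adjusted p = 0.15). In PaS cells it had 111, 107 and 116 FPKM in ko libraries, against 143, 149 and 136 FPKM in wt libraries. All 3 ko libraries lay below the lowest wt library, as was the case in either direction for 23.4% of all tested genes. The log2 fold change was -0.36 (SE 0.07, adjusted p = 0.0032). The ko minus wt difference was 0.52 higher on the log2 scale in CAR than in PaS cells (SE 0.10, adjusted p = 0.0035). The test of this difference called 6.58% of all genes, 3.32% higher and 3.26% lower. It called 2 of the 5 tested PDGF genes higher, Pdgfra and Pdgfc.

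Between populations, Pdgfra was lower in CAR than in PaS cells of either genotype. The CAR minus PaS value in ko cells was -0.77 on the log2 scale (SE 0.07, adjusted p = 1.6e-07), with means of 64.9 ± 3.90 FPKM in CAR and 111 ± 4.57 FPKM in PaS libraries (SD, n = 3 each). In wt cells it was -1.29 (SE 0.07, adjusted p = 2.5e-10), with means of 57.9 ± 2.77 FPKM in CAR and 142 ± 6.64 FPKM in PaS libraries. The order of the 4 levels was PaS wt, PaS ko, CAR ko and CAR wt, and only the neighbours CAR ko and CAR wt overlapped. Both gates require the protein that Pdgfra encodes, so this contrast is between cells that were all selected for it. In bulk libraries fewer positive cells and less RNA per cell cannot be told apart.

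Pdgfrb, the receptor for PDGF-B and PDGF-D, differed between populations and passed no genotype test. It had 179, 164 and 157 FPKM in CAR ko libraries, against 90.2, 89.9 and 89.2 FPKM in PaS ko libraries, a log2 difference of 0.88 (SE 0.06, adjusted p = 1.8e-08). In wt cells it had 188, 202 and 178 FPKM in CAR libraries, against 96.5, 91.1 and 91.4 FPKM in PaS libraries (log2 fold change 1.02, SE 0.06, adjusted p = 2.8e-09). Every CAR library exceeded every PaS library, and the means differed 1.86-fold in ko and 2.04-fold in wt cells. The test between ko populations called 36.9% of all genes, 17.0% higher and 19.8% lower in CAR cells, and 4 of the 5 tested PDGF genes higher and 1 lower. The test between wt populations called 43.2% of all genes, 20.5% higher and 22.7% lower, and 3 of the 5 higher and 1 lower. Libraries did not overlap between populations for all 5 genes in either genotype, which held for 47.9% of all genes in ko and 51.2% in wt cells. Comparisons that share a group are not independent of each other.

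The ko minus wt log2 fold change of Pdgfrb was -0.18 in CAR cells (SE 0.06, adjusted p = 0.083), with overlapping libraries. Without CAR ko replicate 1, its highest ko library, the log2 fold change was -0.24 (adjusted p = 0.036). Among PaS cells it was -0.05 (SE 0.06, adjusted p = 0.74), although the ko libraries all lay just below the wt libraries. The difference of these effects was -0.13 (SE 0.09, adjusted p = 0.46), so a difference in the response of Pdgfrb between populations was not detected.

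**Figure D2:**
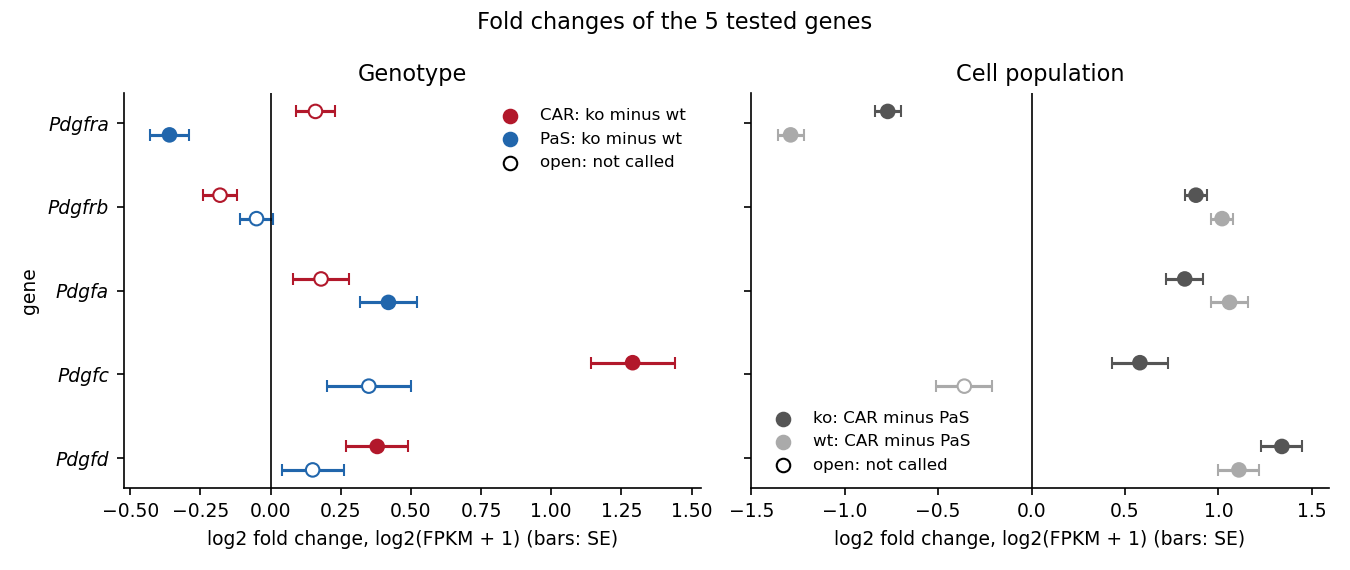
Log2 fold changes with standard errors on the log2(FPKM + 1) scale for the 5 tested genes: ko minus wt within CAR (red) and PaS (blue) cells on the left, CAR minus PaS within ko (dark) and wt (light) cells on the right; filled points were called at an adjusted p under 0.05. Pdgfc has the largest genotype difference of the 5, 1.29 in CAR cells, and is the gene whose CAR minus PaS value lies at 0.58 in ko and -0.36 in wt cells.

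Pdgfc, a latent ligand of PDGFRα, had the largest genotype difference of the 5 tested genes. In CAR cells it had 16.5, 16.1 and 20.3 FPKM in ko libraries, against 6.68, 6.34 and 6.75 FPKM in wt libraries. Every ko library exceeded every wt library by more than the whole spread of either group, while libraries of the groups did not overlap for 29.9% of all tested genes. The means, 17.7 ± 2.32 FPKM in ko and 6.59 ± 0.223 FPKM in wt libraries (SD, n = 3 each), differed 2.68-fold, and the log2 fold change was 1.29 (SE 0.15, adjusted p = 2.7e-05).

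In PaS cells Pdgfc had 8.49, 13.2 and 13.1 FPKM in ko libraries, against 8.23, 9.08 and 8.92 FPKM in wt libraries. Replicate 1 of PaS ko lay among the wt libraries and the other ko libraries lay above them. The log2 fold change was 0.35 (SE 0.15, adjusted p = 0.20), and without PaS ko replicate 1 it was 0.54 (adjusted p = 0.017). The genotype difference was larger in CAR than in PaS cells by 0.94 on the log2 scale (SE 0.21, adjusted p = 0.012). This difference kept an adjusted p of 0.0096 to 0.036 without any single library, PaS ko replicate 1 included.

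Between populations Pdgfc had opposite signs in the genotypes. In ko cells CAR exceeded PaS libraries, by 0.58 on the log2 scale (SE 0.15, adjusted p = 0.0048). In wt cells CAR libraries lay below PaS libraries without overlap, at -0.36 on the log2 scale (SE 0.15, adjusted p = 0.059). The wt value passed the threshold when only the wt groups were fitted (adjusted p = 0.037).

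Pdgfd, a latent ligand of PDGFRβ, rose in CAR ko cells by less than Pdgfc. It had 42.8, 35.8 and 36.2 FPKM in CAR ko libraries, against 28.2, 30.3 and 28.9 FPKM in CAR wt libraries. The groups did not overlap, and replicate 1 was the highest ko library (log2 fold change 0.38, SE 0.11, adjusted p = 0.030). The call lay near the threshold. With no filter the adjusted p was 0.058, and leaving out CAR ko replicate 1 or 3, or any single CAR wt library, gave 0.052 to 0.14. In PaS cells Pdgfd had 12.4, 16.0 and 15.2 FPKM in ko libraries, against 12.8, 14.1 and 11.96 FPKM in wt libraries (log2 fold change 0.15, SE 0.11, adjusted p = 0.50). The PaS groups overlapped, and the difference of the genotype effects was 0.23 (SE 0.15, adjusted p = 0.44). Pdgfd was higher in CAR than in PaS cells on the log2 scale by 1.34 in ko (SE 0.11, adjusted p = 5.1e-08) and by 1.11 in wt cells (SE 0.11, adjusted p = 4.1e-07).

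Pdgfa, the ligand of PDGFRα homodimers, rose in PaS ko cells. In CAR cells Pdgfa had 66.4, 76.8 and 75.9 FPKM in ko libraries, against 62.4, 58.2 and 72.4 FPKM in wt libraries (log2 fold change 0.18, SE 0.10, adjusted p = 0.27). These groups overlapped. It had 44.4, 37.6 and 40.6 FPKM in PaS ko libraries, against 27.6, 32.7 and 30.5 FPKM in PaS wt libraries. The groups did not overlap (log2 fold change 0.42, SE 0.10, adjusted p = 0.012). Replicate 1 was the highest of the ko and the lowest of the wt libraries, and without either of these the adjusted p was 0.065 and 0.066, with a log2 fold change of 0.36. The wt library is the one with fewer genes at 0. The difference of the genotype effects, CAR minus PaS, was -0.24 (SE 0.14, adjusted p = 0.36). Pdgfa was higher in CAR than in PaS cells, on the log2 scale by 0.82 in ko (SE 0.10, adjusted p = 4.7e-06) and by 1.06 in wt cells (SE 0.10, adjusted p = 2.3e-07). The gene gives rise to splice forms with and without a retention motif, which a value per gene does not separate.

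Pdgfb, the ligand of both receptors and a product of endothelial cells and megakaryocytes, was close to the lower end of measurement. It had 0.166, 0.296 and 0.0292 FPKM in CAR ko libraries and 0.106, 0.238 and 0.403 FPKM in CAR wt libraries. In PaS cells it had 0.663, 0.226 and 0.607 FPKM in ko libraries, and it was listed at 0.722, 0 and 0.706 FPKM in wt libraries. The groups overlapped in both populations, in PaS cells only through the wt library listed at 0. These values sat on whole steps of a shared size once scaled by relative depth, within 0.012 of a step, and the libraries held 0 to 46 steps each. An exact 0 beside 43 steps in both other PaS wt libraries may be a failed estimate, since such zeros also occur at highly abundant genes in these tables. Without the filter, Pdgfb had an adjusted p of 0.95 in either genotype comparison, with log2 fold changes of -0.10 in CAR and 0.05 in PaS cells (SE 0.21 each).

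The summed ligand level was higher in CAR than in PaS libraries and, within each population, higher in ko than in wt libraries. The 4 ligands summed to 126, 129 and 133 FPKM in CAR ko libraries, against 97.4, 95.1 and 108 FPKM in CAR wt libraries. They summed to 65.9, 67.04 and 69.5 FPKM in PaS ko libraries, against 49.3, 55.9 and 52.1 FPKM in PaS wt libraries. The sums are a description and carry no test. Pdgfc made up 12.5% to 15.3% of the sum in CAR ko and 6.23% to 6.86% in CAR wt libraries, against 12.9% to 19.7% in PaS ko and 16.2% to 17.1% in PaS wt libraries. Pdgfa supplied the most in all 12 libraries, from 52.8% to 67.4%.

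The 2 receptors stood in opposite balance in the populations. The ratio of Pdgfra to Pdgfrb was 0.38, 0.37 and 0.42 in CAR ko libraries, against 0.32, 0.28 and 0.31 in CAR wt libraries. It was 1.23, 1.18 and 1.30 in PaS ko libraries, against 1.48, 1.63 and 1.48 in PaS wt libraries. In ko libraries the ratio was thus closer to 1 in both populations, with no overlap of ko and wt libraries in either. For levels of single genes, such non-overlap held for 29.9% of all tested genes in CAR and 23.4% in PaS cells. The ratios are a description and carry no test. In CAR cells neither receptor was called between genotypes, and the libraries overlapped for both. Summed receptor levels were nearer each other, at 223 to 248 FPKM in CAR ko, 234 to 259 FPKM in CAR wt, 196 to 205 FPKM in PaS ko and 227 to 239.9 FPKM in PaS wt libraries.

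**Figure D3:**
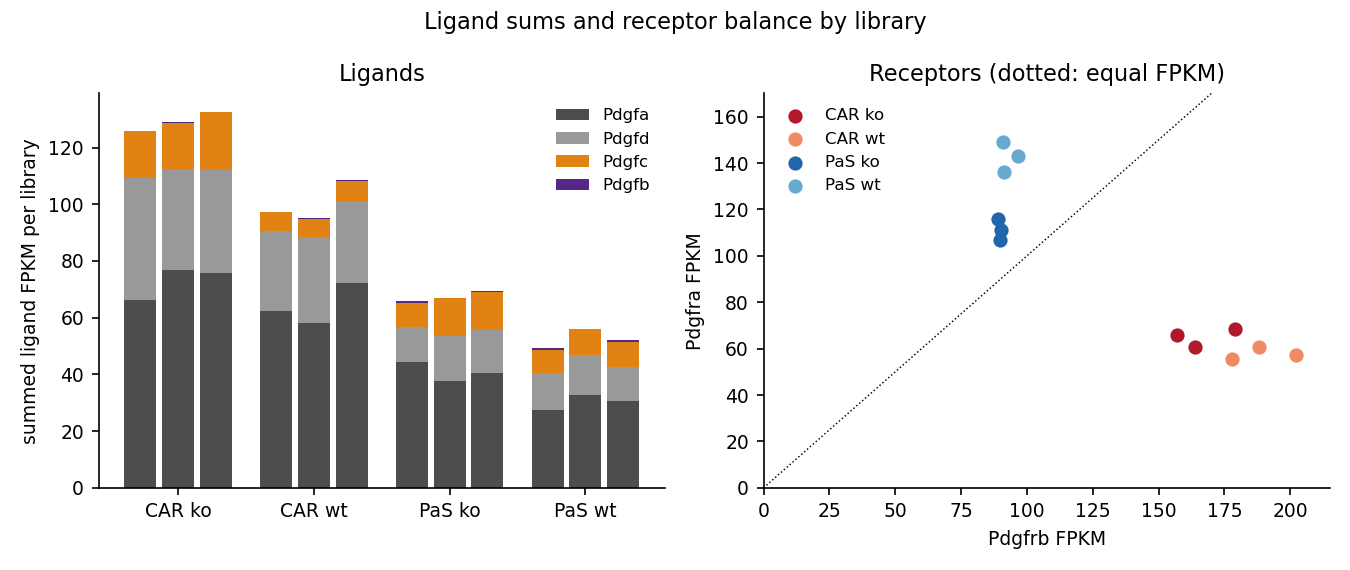
Left, FPKM of the 4 ligands stacked for each library, in groups of 3; right, Pdgfra against Pdgfrb FPKM for each library, with equal levels as a dotted line. The ligand stacks are taller in CAR than in PaS libraries, with the orange Pdgfc part largest in CAR ko, and CAR libraries lie below and PaS libraries above the line of equal receptor levels.

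Genes that process PDGF ligands or bind them outside the receptor included several that were higher in CAR ko cells. Of 14 on the list, 12 were tested, and 7 were called higher and 0 lower in CAR ko cells, with a median log2 fold change of 0.41. Over all tested genes 6.51% were called higher and 5.74% lower there, with a median of 0.01. This list, like those below, was chosen with earlier results of these data known, so the counts are a description only. In PaS ko cells 0 were called higher and 2 lower, with a median of 0.00, against 3.41% higher and 4.03% lower over all tested genes; at an unadjusted limma p under 0.05, 1 was higher and 4 lower. In CAR cells 0 were lower at that p. Pcsk6, a proprotein convertase, had 39.6 ± 0.388 FPKM in CAR ko and 19.4 ± 1.21 FPKM in CAR wt libraries (log2 fold change 0.99, SE 0.07, adjusted p = 3.0e-07). The PaS libraries had 54.2 ± 4.38 FPKM in ko and 135 ± 2.31 FPKM in wt cells (log2 fold change -1.31, SE 0.07, adjusted p = 1.6e-08). Pcsk6 therefore moved in opposite directions, and the difference of its effects was 2.30 (SE 0.10, adjusted p = 8.0e-09). The test of this difference called 4 of the 12 genes higher and 0 lower; 7 were higher and 0 lower at an unadjusted limma p under 0.05. Over all tested genes this test called 3.32% higher and 3.26% lower.

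In CAR cells the co-receptor Nrp2 rose by 0.83 and Sparc, a matrix protein that binds PDGF-B, by 0.61 on the log2 scale. Plat, the tissue plasminogen activator that removes the CUB domain of PDGF-C, was, like Furin and Plg, chosen after its values were seen. It had 21.0 ± 2.51 FPKM in CAR ko and 14.8 ± 2.52 FPKM in CAR wt libraries (log2 fold change 0.49, SE 0.11, adjusted p = 0.0072), while in PaS cells its log2 fold change was 0.10 (adjusted p = 0.68). Plau, the urokinase that acts on PDGF-D, was near 0 in CAR cells, at 0.174 FPKM or less, and had 0.816 ± 0.299 FPKM in PaS ko and 3.69 ± 0.391 FPKM in PaS wt libraries (log2 fold change -1.38, SE 0.18, adjusted p = 9.7e-05). Both plasminogen activators were lower in CAR than in PaS cells: in wt cells the log2 fold changes were -2.37 for Plat and -2.15 for Plau. Furin, which cuts PDGF-A and PDGF-B, was not called between genotypes, with log2 fold changes of -0.25 in CAR and -0.33 in PaS cells (adjusted p = 0.40 and 0.30). Plg, which encodes plasminogen, was listed at 0 in all 12 libraries.

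**Figure D4:**
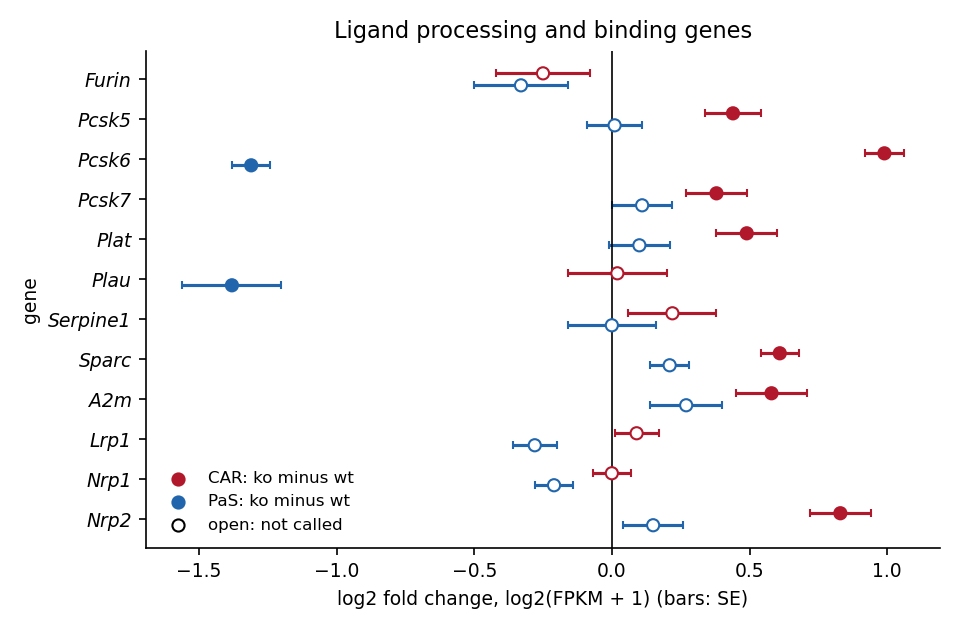
Ko minus wt log2 fold changes with standard errors on the log2(FPKM + 1) scale for the 12 tested genes of ligand processing and binding, in CAR (red) and PaS (blue) cells; filled points were called. In CAR cells 7 genes lie to the right of 0 as filled points, and Pcsk6 is filled on opposite sides, at 0.99 in CAR and -1.31 in PaS cells.

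The signalling genes downstream of the receptors were mostly not called between genotypes. Of 33 tested genes of receptor-proximal signalling, 1 was called higher in CAR ko cells and 1 lower in PaS ko cells, in both cases the Src family kinase Fyn, where 12.3% of all tested genes were called in CAR and 7.44% in PaS cells. Fyn had 32.6 ± 1.26 FPKM in CAR ko and 18.8 ± 0.152 FPKM in CAR wt libraries (log2 fold change 0.77, SE 0.07, adjusted p = 2.4e-06). Its level in PaS cells was 50.0 ± 1.88 FPKM in ko and 59.1 ± 2.45 FPKM in wt libraries (log2 fold change -0.24, adjusted p = 0.050 as rounded), and the difference of its effects was 1.00 (SE 0.10, adjusted p = 1.6e-05). Of 16 negative regulators, 0 were called between genotypes by limma in either population; at an unadjusted p under 0.05 there were 2 higher and 1 lower in CAR and 0 in PaS cells. Between wt populations 7 of these were called higher in CAR cells and 2 lower, against 20.5% higher and 22.7% lower over all tested genes. The feedback inhibitor Spry1, called higher, was at 201 ± 3.06 FPKM in CAR wt and 107 ± 3.35 FPKM in PaS wt libraries (log2 fold change 0.90, SE 0.07, adjusted p = 4.8e-08).

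Of 18 genes of the immediate response to growth factors, 2 rose and 3 fell in CAR ko cells, and 0 rose and 8 fell in PaS ko cells, where the median log2 fold change was -0.22 and 0 were higher at an unadjusted limma p under 0.05. Over all tested genes 6.51% rose and 5.74% fell in CAR ko cells, and 3.41% rose and 4.03% fell in PaS ko cells. In PaS cells the AP-1 gene Fosl1 had 2.96 ± 0.649 FPKM in ko and 7.69 ± 1.15 FPKM in wt libraries (log2 fold change -1.14, SE 0.20, adjusted p = 0.0016). The chemokine gene Ccl7 had 134 ± 6.53 FPKM in PaS ko and 217 ± 3.16 FPKM in PaS wt libraries (log2 fold change -0.69, SE 0.05, adjusted p = 7.1e-07). These genes also respond to other stimuli and to cell dissociation. Of 13 tested receptors and ligands of the related KIT and VEGF families, 1 rose and 3 fell in CAR ko cells and 0 rose and 2 fell in PaS ko cells, where 1 was higher and 3 lower at an unadjusted limma p under 0.05. The same shares over all tested genes apply, 12.3% called in CAR and 7.44% in PaS cells. Figf, which encodes VEGF-D, averaged 0.240 ± 0.132 FPKM in CAR wt and 19.7 ± 0.675 FPKM in PaS wt libraries (log2 fold change -4.07, SE 0.14, adjusted p = 2.2e-12).

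Markers of other cells were present at levels that moved with some of these groups. Endothelial markers, all 12 of 12 measured and none at 0 in all libraries, summed to 20.9 to 24.4 FPKM in CAR ko, 12.9 to 14.2 FPKM in CAR wt, 75.8 to 84.1 FPKM in PaS ko and 82.8 to 97.8 FPKM in PaS wt libraries. Megakaryocyte markers, all 11 of 11 measured and none at 0 in all libraries, summed to 29.6 to 300.3 FPKM in CAR ko, 203 to 507 FPKM in CAR wt, 53.1 to 64.4 FPKM in PaS ko and 384 to 455 FPKM in PaS wt libraries. The megakaryocyte sums did not overlap between genotypes in PaS cells. Pdgfb levels overlapped there only through the PaS wt library listed at 0, which may be a failed estimate. The remaining PaS wt values, 0.722 and 0.706 FPKM, lay above the PaS ko values of 0.226 to 0.663 FPKM. A part of megakaryocytes in the Pdgfb levels was not tested. Pericyte and smooth muscle markers other than Pdgfrb, all 11 of 11 measured, summed to 47.2 to 55.4 FPKM in CAR ko, 51.3 to 55.2 FPKM in CAR wt, 64.7 to 70.5 FPKM in PaS ko and 47.8 to 51.2 FPKM in PaS wt libraries, with Cnn1 under 1 FPKM throughout. This sum lay below that of PaS cells in CAR ko and just above it in CAR wt libraries, while Pdgfrb was higher in CAR cells of both genotypes.

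Beside the rise of Pdgfc and Pdgfd in CAR ko cells, osteoblast markers were called higher in 8 of 10 cases and lower in 1, Col1a1. Over all tested genes 6.51% were called higher and 5.74% lower in CAR ko cells. The 9 osteoblast markers other than Col1a1 summed to 36211 to 44398 FPKM in CAR ko and 23043 to 24611 FPKM in CAR wt libraries. Col1a1 was left out of the sum because 2 CAR ko libraries list it at 0, which may be failed estimates, and that choice was made after its values were seen. Markers of blood cells were lower in CAR ko libraries. The 12 pan-leukocyte and lymphoid markers, with Cd3e and Cd3g under 1 FPKM throughout, summed to 115 to 119 FPKM in CAR ko and 345 to 346 FPKM in CAR wt libraries. The 10 neutrophil markers summed to 4524 to 5124 FPKM in CAR ko and 10028 to 11571 FPKM in CAR wt libraries. The 10 erythroid markers summed to 2217 to 2698 FPKM in CAR ko and 4096 to 4613 FPKM in CAR wt libraries, and the 10 monocyte and macrophage markers measured summed to 16.7 to 21.1 FPKM in CAR ko and 40.2 to 48.9 FPKM in CAR wt libraries. Of 10 chondrocyte markers, 4 were called higher and 4 lower in CAR ko cells. Of the 12 CAR cell markers, 0 were called higher and 6 lower there, and their median log2 fold change was -0.31. Their sums overlapped, at 19255 to 21826 FPKM in CAR ko and 20822 to 21950 FPKM in CAR wt libraries. Of the 12 PaS and fibroblast markers, 6 were called higher and 3 lower in CAR ko cells, with a median of 0.34.

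Beside the changes of Pdgfra and Pdgfa in PaS ko cells, marker lists moved in both directions. Over all tested genes 3.41% were called higher and 4.03% lower in PaS ko cells. The 12 PaS and fibroblast markers summed to 5769 to 6138 FPKM in PaS ko and 6869.5 to 7876 FPKM in PaS wt libraries, with 5 called lower, 0 higher and 0 higher at an unadjusted limma p under 0.05. The 10 neutrophil markers summed to 6774 to 6946 FPKM in PaS ko and 21805 to 24535 FPKM in PaS wt libraries, and all 10 were called lower. The sums of monocyte and macrophage markers were higher, at 316 to 408 FPKM in PaS ko and 162 to 187 FPKM in PaS wt libraries, with 5 of 9 tested called higher and 1 lower. The 9 osteoblast markers other than Col1a1 summed to 4576 to 5041 FPKM in PaS ko and 2906 to 3230.2 FPKM in PaS wt libraries, and 7 of all 10 were called higher. Erythroid markers summed to 4269 to 4594 FPKM in PaS ko and 3500.2 to 4417 FPKM in PaS wt libraries, which overlapped, with 5 of 10 called higher. Of 10 chondrocyte markers, 7 were called higher and 1 lower, while their sum was 2603 to 2830.2 FPKM in PaS ko and 3133 to 3405 FPKM in PaS wt libraries. Pan-leukocyte and lymphoid markers summed to 256 to 279.8 FPKM in PaS ko and 366 to 428 FPKM in PaS wt libraries. Of the 10 tested, however, 1 was called higher and 3 lower, and the median log2 fold change was 0.08. The part of any of these cells in the PDGF results was not tested.

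Genes most like each PDGF gene were ranked by Pearson correlation of log2(FPKM + 1) over the 12 libraries, which fall into 4 groups, so that likeness mostly describes the group means. Pdgfrb was closest to Bmp6 (r = 0.996), Lepr (0.996) and Ak3 (0.995). The correlation of deviations from the group means was 0.86 with Bmp6, 0.80 with Lepr and 0.72 with Ak3. Pdgfra was closest to Lrrc17 (0.993), Col4a5 (0.993) and Fgl2 (0.991), with 0.31, 0.45 and 0.64 for the deviations. Pdgfa was closest to Vstm4 (0.990), Clmp (0.984) and Tmco1 (0.984), with 0.84, 0.54 and 0.74 for the deviations. Pdgfd was closest to Cul1 (0.992), Pgbd5 (0.991) and Nrp2 (0.990), with 0.82, 0.73 and 0.64. Pdgfc had fewer close neighbours: its nearest were Yipf4 (0.933), Uts2 (0.924) and Atp1b3 (0.904), with 0.44, 0.70 and -0.03 for the deviations, and none of 12267 genes had r over 0.95, where 117 to 455 did for the other tested PDGF genes.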

How the data were processed

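RNA was sequenced from sorted CAR and PaS cells in 12 libraries, with SMART-Seq v4 kits and oligo dT enrichment, per the labels' protocols. The authors deposited FPKM values, each library's table listing 24347 symbols. The submitters' processing notes name mm10, Cuffnorm 2.2.1, Cufflinks 2.2.1 and TopHat2 2.0.14; annotation, strand and filters are not given in the sources used here. The 8 ATAC-seq samples were not analysed here. Replicates were compared through low genes, of which 1002 of 3586 sat on whole-read steps (within 0.03). Over the 280 to 426 of them usable in a pair, chi-square values between replicates were 4.03 to 7.70 per degree of freedom. Listed zeros entered as counts of 0, and some may be failed estimates. These values alone therefore cannot show that the replicates are separate libraries. No counting interval was computed.

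Values were tested as log2(FPKM + 1), which understates changes of low genes, for the 12938 genes that reached 1 FPKM in 3 or more libraries. limma 3.58.1 (R 4.3.3) fitted a model of 4 groups (eBayes with trend; 8 residual and 6.95 prior degrees of freedom), two-sided. A call meant an adjusted p under 0.05 by Benjamini-Hochberg over all tested genes. Errors beside FPKM are SDs and beside log2 fold changes SEs. Alternatives changed the pseudocount, filter, scaling, weights, groups fitted, gene set, zeros, block and libraries. The genes, lists and tests were chosen with earlier results of these data known. Named list genes were the 3 largest called increases and decreases per list, except where said. Figures used matplotlib 3.10.9 in Python 3.11.15.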

Additional observations from a re-analysis of the deposited data

Results flagged for a closer look

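The ko minus wt difference of Pdgfc was larger in CAR than in PaS cells by 0.94 on the log2 scale (SE 0.21, adjusted p = 0.012 for the difference itself). Pdgfc was higher in 3 of 3 CAR ko libraries than in any CAR wt library, and PaS ko replicate 1 lay among the PaS wt libraries. The ko minus wt difference of Pdgfra was higher in CAR than in PaS cells by 0.52 (SE 0.10, adjusted p = 0.0035). Its log2 fold change was 0.16 in CAR cells, with overlapping libraries, and -0.36 in PaS cells, where 3 of 3 ko libraries lay below all wt libraries.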

How the results depend on the processing

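The 25 tested fold changes of the PDGF genes were recomputed in 450 alternatives in all: none changed direction, 438 stayed on the same side of the threshold, 8 lost a call and 4 gained one. Pdgfd in CAR cells lost its call without a filter, at 0.38 on the log2 scale (adjusted p = 0.058), and ranged from 0.30 to 0.42 without single libraries. Pdgfa in PaS cells ranged from 0.36 to 0.48, Pdgfc in PaS cells from 0.25 to 0.54 and Pdgfrb in CAR cells from -0.24 to -0.14 without single libraries. Pdgfc in wt CAR minus PaS cells gained a call at an unchanged -0.36 with only the groups compared (adjusted p = 0.037) and with the replicate number as a block (adjusted p = 0.046). The cause was not tested. Deviations from the group means correlated at -0.04 to 0.18 between same-numbered libraries of different groups. Between libraries of unlike number the range was -0.13 to 0.09. Such correlations cannot show whether same-numbered libraries share animals or a preparation, so pairing was left undecided. The block gave 1585 called genes in CAR and 961 in PaS cells, against 1585 and 962 without it. It changed no other call of a PDGF gene. Called genes numbered 1129 to 1261 in CAR and 748 to 835 in PaS cells without single libraries. Depth limits levels near 0, such as those of Pdgfb and, in CAR cells, Plau and Figf.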

Other observations

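Pdgfrl, which encodes a PDGF receptor-like protein with extracellular immunoglobulin domains and no kinase, was chosen after its values were seen. It had 31.0, 38.8 and 37.6 FPKM in CAR ko libraries, against 20.2, 24.5 and 20.7 FPKM in CAR wt libraries (log2 fold change 0.69, SE 0.10, adjusted p = 0.00032). Among PaS cells it had 73.2, 76.8 and 84.5 FPKM in ko libraries, against 51.3, 59.8 and 59.5 FPKM in wt libraries (log2 fold change 0.45, SE 0.10, adjusted p = 0.011). The ko libraries lay above the wt libraries in both populations. Libraries did not overlap between genotypes, in either direction, for 29.9% of all tested genes in CAR and 23.4% in PaS cells. The difference of the effects on Pdgfrl was 0.23 (SE 0.14, adjusted p = 0.40). Pdgfrl was lower in CAR than in PaS cells, by a log2 fold change of -1.11 in ko and -1.34 in wt cells.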
